A study of Mus musculus with 2 samples.

Results

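The granzymes, perforin and the other genes of the cytotoxic granule are described here in cells enriched as splenic Treg cells of islet allograft recipients. The members were chosen by name, as the rows of both gene tables whose symbol is Gzma, Gzmb, Gzmk, Gzmm, Prf1, Nkg7, Ctsw, Fasl or Srgn, and all 9 were found among the 20938 genes. RNA-seq was performed on 1 library labelled Ctrl and 1 library labelled KD, each from Treg cells isolated from the spleen on day 7 after transplantation. Both kinds of mice carried BALB/c islets under the kidney capsule, had streptozotocin-induced diabetes and received no tolerance-inducing antibodies, per the study's text.

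The library labelled KD came from Foxp3-Mettl14f/+ cKO mice, in which Cre under the Foxp3 promoter removes 1 floxed allele of Mettl14, a subunit of the m6A writer complex, in cells that express Foxp3. The library labelled Ctrl came from littermate controls, which the study's genotyping text gives as Mettl14f/f and the sample labels as wild type. The labels also give the genotype of the other library as a knockdown of Foxp3. In the data, Mettl14 had 948 reads in the library labelled Ctrl and 652 in the library labelled KD, which is -0.31 on the log2 scale (95% interval -0.45 to -0.16). Foxp3 had 1547 and 1361 reads and was at 0.05 on the log2 scale (95% interval -0.06 to 0.15), so its level was not lower in the library labelled as its knockdown. The age and number of mice behind each library are not given in the sources used here. The cells were enriched with beads for CD4 and CD25, without a sort on Foxp3. The paper reports by flow cytometry that most cells isolated from mice of these genotypes were Foxp3+. In these libraries, however, 9 granulocyte markers had 256804 reads (Ctrl) and 300165 reads (KD). The 16 T cell core genes had 79195 and 54450. The levels below are thus those of all RNA in a library, and the part of each cell type in them was not tested. By western blot it reports less FOXP3 protein in Treg cells of the cKO mice than in those of littermate controls.

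Cytotoxic lymphocytes kill by releasing granules onto a target cell. Perforin opens the target's membrane, granzymes enter through it and cut proteins that set off cell death, and serglycin is the proteoglycan on which both are stored. Fas ligand acts apart from the granule, by engaging the death receptor Fas on the target. NK cells and CD8 T cells are the main producers, and activated Treg cells can also use granzyme B and perforin against the cells they restrain.

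The proximal promoters of 4 members are shown because their genes code for the effectors of the granule and of the Fas route, and because their levels differed between the libraries to different degrees. Each sequence, from RefSeq on GRCm38.p6, covers 250 bases before and 50 bases after the start of transcription. Capitals mark matches, on either strand, to AP-1 (TGANTCA), RUNX (TGTGGT), T-box (AGGTGT), STAT (TTCNNNGAA) or the CRE core (TGACGT). The windows lie on the minus strand at chr13:113100932-113101231 for Gzma, chr14:56262285-56262584 for Gzmb and chr1:161788446-161788745 for Fasl, and on the plus strand at chr10:61297586-61297885 for Prf1.
Gzma: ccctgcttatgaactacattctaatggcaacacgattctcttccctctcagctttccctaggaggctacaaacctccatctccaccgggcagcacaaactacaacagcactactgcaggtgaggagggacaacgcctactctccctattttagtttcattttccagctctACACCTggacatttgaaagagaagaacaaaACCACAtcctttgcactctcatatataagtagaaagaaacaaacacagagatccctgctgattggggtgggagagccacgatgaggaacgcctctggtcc
Gzmb: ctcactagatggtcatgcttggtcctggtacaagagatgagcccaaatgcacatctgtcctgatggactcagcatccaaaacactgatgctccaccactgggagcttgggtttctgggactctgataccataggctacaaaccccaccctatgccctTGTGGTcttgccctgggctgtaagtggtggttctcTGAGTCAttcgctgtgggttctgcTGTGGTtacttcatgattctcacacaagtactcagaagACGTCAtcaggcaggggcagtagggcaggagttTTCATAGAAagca
Prf1: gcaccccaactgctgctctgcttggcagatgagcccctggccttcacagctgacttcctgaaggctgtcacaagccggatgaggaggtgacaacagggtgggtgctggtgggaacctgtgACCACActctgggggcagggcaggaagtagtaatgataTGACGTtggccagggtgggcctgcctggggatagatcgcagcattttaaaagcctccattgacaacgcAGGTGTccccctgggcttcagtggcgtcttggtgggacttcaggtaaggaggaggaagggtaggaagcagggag
Fasl: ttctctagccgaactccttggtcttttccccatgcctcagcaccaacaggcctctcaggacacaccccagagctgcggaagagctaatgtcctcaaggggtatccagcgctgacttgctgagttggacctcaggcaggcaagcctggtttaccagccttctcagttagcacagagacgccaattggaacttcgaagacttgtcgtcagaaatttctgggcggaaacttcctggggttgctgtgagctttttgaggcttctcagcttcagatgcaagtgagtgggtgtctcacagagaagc
The Gzma window held a T-box match from -80 to -75 and a RUNX match from -50 to -45, counted from the start of transcription. The Gzmb window held an AP-1 match from -58 to -52 and RUNX matches from -93 to -88 and from -34 to -29, together with a STAT match and a CRE core match beyond the start. The RefSeq start of Gzmb lies 74 bases upstream of the GENCODE start. Prf1 carried a RUNX match from -130 to -125, a CRE core match from -92 to -87 and a T-box match from -24 to -19. No match to these letters was present in the Fasl window, and no matches overlapped each other in the windows shown. Promoter windows were found for 8 members, all except Ctsw, and numbered 10. The RUNX letters were in 6 of these windows and in 16.8% of all 32851 promoter windows. T-box letters were in 4 (13.7% of all windows), STAT letters in 3 (8.30%), CRE core letters in 3 (7.51%) and AP-1 letters in 1 (7.81%). A match describes the letters of the window and was not tested for binding.

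Values are given as deposited, on a scale where the reads of each library were divided by its own size factor, and as the whole reads behind them. A change is the log2 of the KD value plus 1 over the Ctrl value plus 1. With 1 library per group there is no spread between replicates and no test between the groups, so every 95% interval below covers counting error only. Intervals of changes and of shares of reads are exact Clopper-Pearson intervals, and those of levels per length are exact Poisson intervals. Gzma and Fasl were the members at least 1.5-fold higher in the library labelled KD, and no member was at least 1.5-fold lower. Among all 16659 genes whose mean level over both libraries reached 1, this held for 17.2% in the higher direction and 24.2% in the lower direction. The lower share held many low genes listed at 0 in the library labelled KD. Among the 13676 genes with a mean of at least 10, the shares were 15.4% higher and 14.9% lower. Counts of list genes past 1.5-fold below are to be set beside these shares. In bulk RNA, more cells of a type and more RNA per cell cannot be told apart. The median log2 fold change of the 9 members, which all passed this minimum, was 0.34, beside -0.04 for all genes tested. A change of 0 stood near percentile 53 of all genes tested. The counts and medians depended on how the libraries were scaled. When the libraries were scaled so that the median change of 16 T cell genes was 0 (the T cell core scaling, with Cd3e and Zap70 among them), the median of all genes moved to 0.24, the median of the members to 0.63, and 6 members were at least 1.5-fold higher, beside 27.3% of all genes tested. That scaling also moved the share of higher genes among all genes past 1.5-fold from 41.6% to 58.3%. Calls were also made by requiring both 1.5-fold and an exact binomial test of the reads, a comparison of 2 libraries rather than of genotypes. Gzma and Fasl were again called higher and no member lower, beside 14.8% of 14863 genes called higher and 17.6% called lower.

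**Figure D1:**
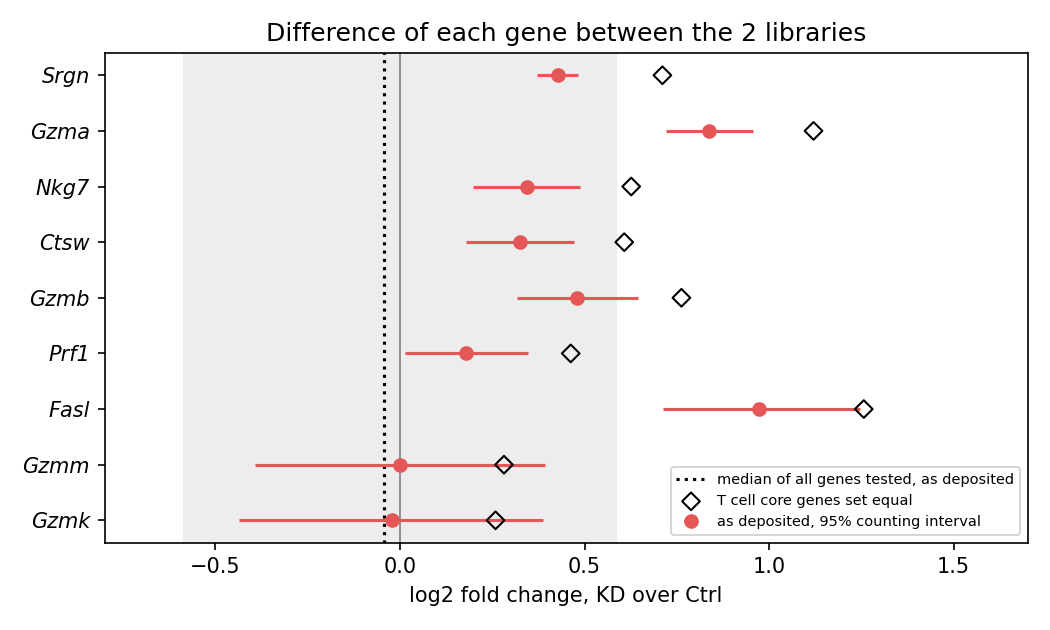
Log2 fold change of each member (x axis, KD over Ctrl), as deposited with its 95% counting interval (red) and under the T cell core scaling (open diamonds). Grey marks changes under 1.5-fold and the dotted line is the median of all genes tested at -0.04; Gzma at 0.84 and Fasl at 0.97 lie outside the grey band on the deposited scale.

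Gzma encodes granzyme A, a protease that cuts after basic residues, and lies on chromosome 13 from 113093825 to 113100981. Its deposited level was 934 in the library labelled Ctrl and 1670 in the library labelled KD, from 966 and 1469 reads. The level was thus 1.79-fold higher in the library labelled KD, or 0.84 on the log2 scale (95% interval 0.72 to 0.96). Gzmb, on chromosome 14 from 56258838 to 56262260, encodes granzyme B, which cuts after aspartate and activates caspases and Bid. Its level was 544 and 758, from 562 and 667 reads, which gave 0.48 on the log2 scale (95% interval 0.32 to 0.64). The value was above 0 beyond counting error and under 1.5-fold on the deposited scale, and reached 0.76 under the T cell core scaling. The granzymes of lower abundance did not share the higher level.

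Gzmk, whose product is another granzyme that cuts after basic residues, lies on chromosome 13 from 113171608 to 113225908, beside Gzma. It had a level of 107 in the library labelled Ctrl and 106 in the library labelled KD, from 111 and 93 reads. Its log2 fold change was -0.02 (95% interval -0.44 to 0.39). Gzmm, on chromosome 10 from 79689020 to 79695261, encodes granzyme M, which is known from NK cells. It had a level of 117 in both libraries, from 121 and 103 reads, and its 95% interval ran from -0.39 to 0.39. For both genes a change of 1.5-fold lay outside the counting interval in either direction. Under the T cell core scaling they were at 0.26 and 0.28, close to the median of 0.24 of all genes.

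The mix of these 4 granzymes does not depend on the scaling between libraries. Gzma held 54.9% of their 1760 reads in the library labelled Ctrl (95% Clopper-Pearson interval 52.5 to 57.2) and 63.0% of 2332 reads in the library labelled KD (61.0 to 65.0). Gzmb held 31.9% (29.8 to 34.2) and 28.6% (26.8 to 30.5). The share of Gzmm was 6.88% and 4.42%, and that of Gzmk 6.31% and 3.99%. The intervals of Gzma, Gzmk and Gzmm did not overlap between the libraries, whereas those of Gzmb did. These shares are parts of the same total, so a larger share of Gzma makes the others smaller, and they are not separate differences. On the deposited scale Gzmk was at -0.02 and Gzmm at 0.0009 on the log2 scale. Shares of reads also reflect gene length.

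**Figure D2:**
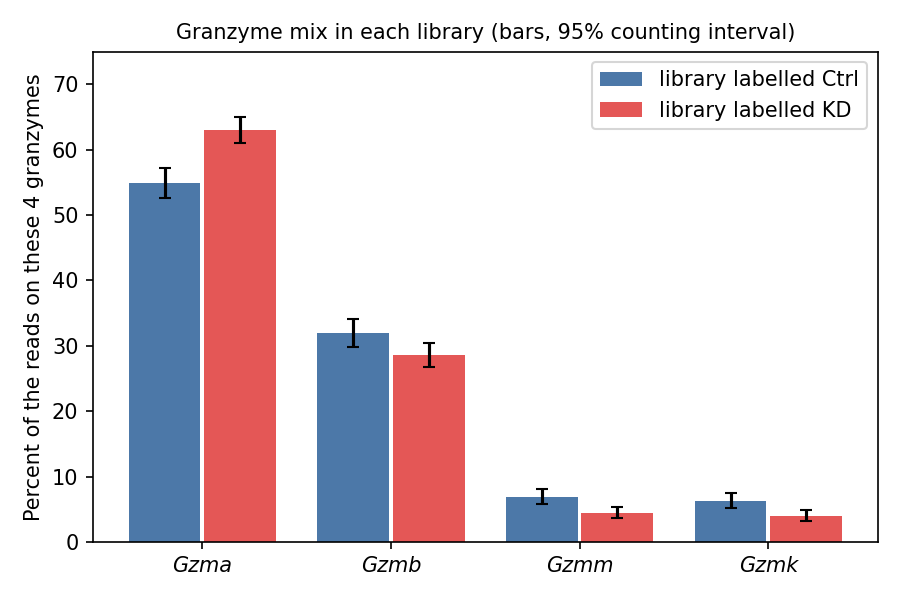
Percent of the reads on Gzma, Gzmb, Gzmm and Gzmk (y axis) held by each gene in each library, with exact 95% counting intervals. Gzma holds 54.9% of the granzyme reads in Ctrl and 63.0% in KD, and the other 3 genes take smaller shares in KD.

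The other granzyme genes of the mouse, Gzmc, Gzmd, Gzme, Gzmf, Gzmg and Gzmn, had few or no reads. Gzmc, Gzmd and Gzme were listed at 0 in both libraries. Gzmf had 2 reads, Gzmg 7 and Gzmn 4 in the library labelled Ctrl, and all 3 were listed at 0 in the library labelled KD. Zeros were frequent there: of all 1108 genes with 5 to 9 reads in the library labelled Ctrl, 704 were listed at 0 in the library labelled KD, as were 610 of 1224 genes with 10 to 19 reads. An exact 0 is therefore not read as a count, and no size is given for differences against it. Several of these genes are near-identical copies, and reads they share may have been split or dropped in the authors' counting.

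Prf1, on chromosome 10 from 61297833 to 61304680, encodes perforin. Its level was 589 in the library labelled Ctrl and 668 in the library labelled KD, from 609 and 587 reads. The log2 fold change was 0.18 (95% interval 0.01 to 0.35), a smaller difference than that of Gzma on the same scale, and the counting intervals of these genes did not overlap. Nkg7 encodes a membrane protein of the granule needed for its release and lies on chromosome 7 from 43437073 to 43438249. Its level was 727 and 923, from 752 and 812 reads, or 0.34 on the log2 scale (95% interval 0.20 to 0.49). Ctsw, on chromosome 19 from 5465043 to 5468507, encodes cathepsin W, a cysteine protease of NK and CD8 T cells. It had a level of 721 and 903, from 745 and 794 reads, and its log2 fold change was 0.32 (95% interval 0.18 to 0.47). Its exons share 9 bases with Fibp on the opposite strand, and this was the one member whose exons overlap another gene. Both Nkg7 and Ctsw were under 1.5-fold on the deposited scale and at 0.63 and 0.61 under the T cell core scaling.

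Srgn, on chromosome 10 from 62493833 to 62527451, encodes serglycin and had the most reads of the members. Its level was 4747 in the library labelled Ctrl and 6386 in the library labelled KD, from 4907 and 5616 reads. The log2 fold change was 0.43 (95% interval 0.37 to 0.48), under 1.5-fold on the deposited scale and 0.71 under the T cell core scaling. Serglycin is also a major proteoglycan of neutrophils, mast cells and platelets. The summed level of 9 granulocyte markers was 248429 and 341336 in the libraries labelled Ctrl and KD, 1.37-fold higher, with 8 of 9 above 0 and Mpo the exception at -1.03. That of 6 mast cell and basophil markers was 6009 and 5165, and that of 6 megakaryocyte markers 897 and 1210. Their part in the level of Srgn was not tested.

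Fasl encodes Fas ligand, a membrane protein of the tumour necrosis factor family, and lies on chromosome 1 from 161780689 to 161788495. Its level was 182 in the library labelled Ctrl and 358 in the library labelled KD, from 188 and 315 reads. At 1.96-fold, or 0.97 on the log2 scale (95% interval 0.71 to 1.25), this was the highest value among the members, and its interval overlapped that of Gzma. Fas, which encodes its receptor, had 329 and 305 reads and was at 0.12 (95% interval -0.11 to 0.35). Of 11 genes of the death receptors and their signalling, none was past 1.5-fold in the higher direction. Tnfrsf10b at -0.61 was the 1 gene at least 1.5-fold lower. Among all genes tested, 17.2% were higher and 24.2% lower by that fold. The median of this list was 0.02. Cflar, whose product restrains caspase 8, was at -0.54, the initiator caspase gene Casp8 at 0.02 and Bid at 0.36.

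Per length, the members spanned a wide range of abundance, given as RPKM, which divides the reads of a gene by its annotated exon length and by the reads of its library. Srgn came first with 110 in the library labelled Ctrl and 140 in the library labelled KD. It was followed by Gzma with 47.4 and 79.7 and Nkg7 with 40.7 and 48.5, whose intervals in the library labelled Ctrl were separate by a small margin (44.5 to 50.5 and 37.8 to 43.7). Ctsw and Gzmb came next with 19.5 and 19.3 in the library labelled Ctrl, where their intervals overlapped, and with 23.0 and 25.3 in the library labelled KD, where the intervals also overlapped. Prf1 had 11.6 and 12.4. Fasl, with 4.80 and 8.87, lay beside Gzmm with 4.06 and 3.82 and Gzmk with 3.95 and 3.65. In the library labelled Ctrl the intervals of Fasl, Gzmm and Gzmk overlapped, whereas in the library labelled KD that of Fasl (7.92 to 9.91) lay above the other two. Among 20490 genes with a length, Gzma stood at percentile 95.9 and 98.1 and Gzmk at percentile 59.1 and 58.6.

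**Figure D3:**
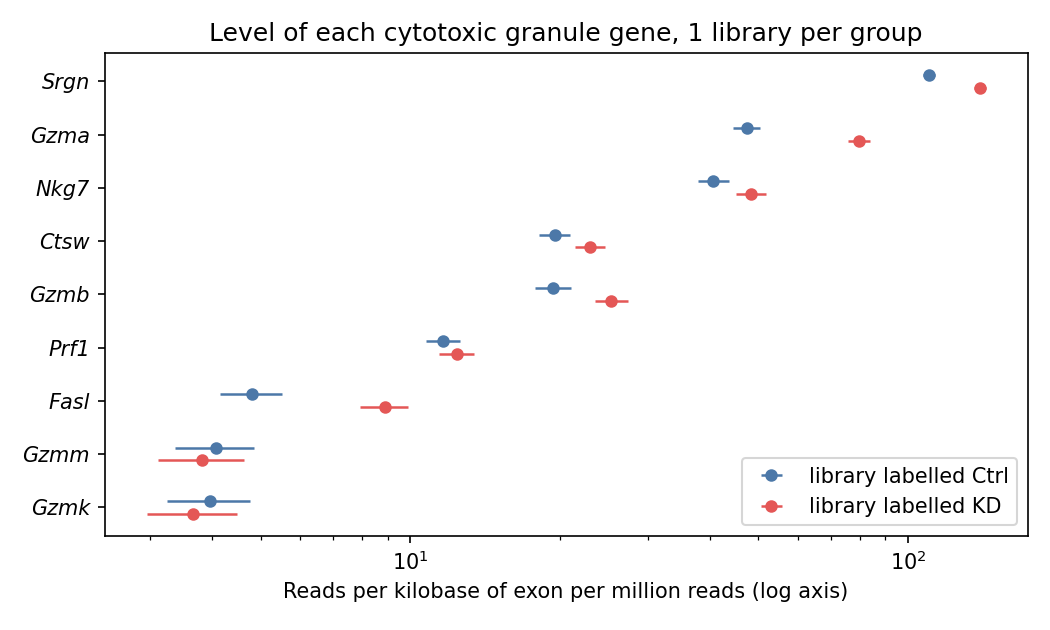
Level of each member per length (x axis, RPKM, log scale) in the libraries labelled Ctrl (blue) and KD (red), with exact 95% Poisson counting intervals. Srgn is highest at 110 and 140, Gzmk is lowest at 3.95 and 3.65, and the separation between the colours is widest for Gzma and Fasl.

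Genes that process, store or block the granule proteases were mixed. Of 9 such genes, 3 were higher by 1.5-fold or more and none lower, beside 17.2% and 24.2% of all genes tested. Their median was 0.24. Ctsc encodes the dipeptidyl peptidase that activates granzymes, had 2498 and 3322 reads in the libraries labelled Ctrl and KD, and was at 0.64 on the log2 scale (95% interval 0.57 to 0.72). Ctsh, the gene of another aminopeptidase that can do so, was at 1.03. Both are also expressed in macrophages, whose 10 markers were all at least 1.5-fold higher in the library labelled KD, with a summed level of 3749 and 12873. The part of macrophage RNA in the level of Ctsc and Ctsh was not tested. Serpinb9, the gene of the intracellular inhibitor of granzyme B, was at 0.36 from 422 and 461 reads. Serpinb9b, a close copy of it, was at 1.22 from 13 and 27 reads, with a wide interval of 0.28 to 2.37. Cst7, which encodes cystatin F, an inhibitor of granule cathepsins, was at -0.28.

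The machinery of granule release was also compared. Of 16 genes, 2 were at least 1.5-fold higher and 1 was lower, beside 17.2% and 24.2% of all genes tested. The median was 0.17. Rab27a and Lyst, whose products bring granules to the membrane and shape them, were at 0.52 and 0.56, under the threshold. Unc13d, the gene of the priming factor Munc13-4, was at -0.05 from 2408 and 1979 reads, and Stx11 and Stxbp2, which code for its fusion partners, were at 0.40 and 0.16. The SNARE genes Stx7 and Snap23 were those past 1.5-fold at 0.71 and 0.59, and Sytl1, which encodes a Rab27 effector, was at -0.75 from 125 and 63 reads.

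Of 9 transcription factors of cytotoxic lineages found in the tables, all had a log2 fold change above 0 on the deposited scale. On that scale 0 stood near percentile 53 of all genes tested. Bhlhe40 at 0.83 was at least 1.5-fold higher, and the interval of Prdm1 held 0 (-0.01 to 0.24). Tbx21, which encodes T-bet, was at 0.26 from 529 and 540 reads and Eomes at 0.20 from 738 and 719 reads. Runx3 was at 0.48 and Zeb2 at 0.48. The median of this list was 0.31, beside 0.34 for the members and -0.04 for all genes tested.

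The cytokines and chemokines that cytotoxic cells release were divided. Of 7 genes past the minimum level and with reads in both libraries, 4 were at least 1.5-fold higher and none lower. Among all genes tested the shares were 17.2% and 24.2%. The higher genes were Ccl5 at 0.71 from 2473 and 3432 reads, Lta at 1.12, Ccl3 at 1.07 and Ccl4 at 1.38 from 31 and 70 reads. The part of other cells, such as macrophages and B cells, in these levels was not tested. Ifng, from 55 and 53 reads, was at 0.18 (95% interval -0.39 to 0.75). Tnf was at -0.14 and Xcl1 at -0.03. Il2 had 9 reads in the library labelled Ctrl and was listed at 0 in the library labelled KD.

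Markers of the cells known to carry these granules were present in both libraries, although the cells were enriched as CD4+CD25+. The NK receptor genes Ncr1 and Klrb1c had 541 and 582 reads in the library labelled Ctrl and 733 and 768 in the library labelled KD. Of 16 NK cell markers, 11 were at least 1.5-fold higher, beside 17.2% of all genes tested, and none lower. All 16 had a log2 fold change above 0 on the deposited scale, and none was at 0 reads. Their summed level was 11590 and 18697, and their median log2 fold change 0.69. Cd8a and Cd8b1, which code for the CD8 coreceptor, had 449 and 365 reads in the library labelled Ctrl and 1824 and 1708 in the library labelled KD, with log2 fold changes of 2.25 and 2.46. The T cell core genes were lower on the deposited scale, with a summed level of 76612 and 61918 and a median of -0.28, and 2 of 16, Cd4 at -0.61 and Cd3g at -0.66, were at least 1.5-fold lower. Among 15 genes of the Treg signature the median was 0.05. Of these, 2 were higher and 3 lower by 1.5-fold or more, beside 17.2% and 24.2% of all genes tested. All 9 B cell markers were at least 1.5-fold higher, with a median of 2.42. The part of NK or CD8 T cell RNA in the levels of the members was not tested.

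**Figure D4:**
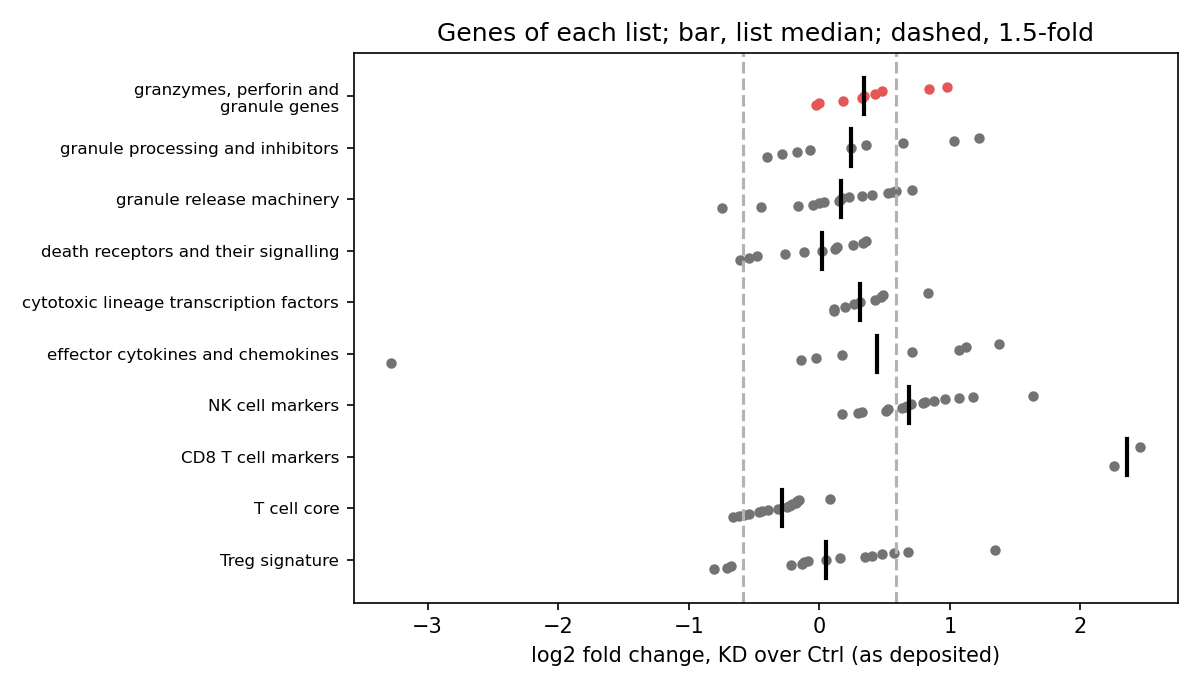
Log2 fold change (x axis, KD over Ctrl, as deposited) of the genes past the minimum level in each list, with the list median as a black bar and 1.5-fold as dashed lines. The median of the granzymes, perforin and granule genes (red) is 0.34, between the T cell core genes at -0.28 and the NK cell markers at 0.69. The CD8 genes lie at 2.25 and 2.46. The lone point at the far left is Il2, listed at 0 in KD. Its position is not read as a size, although it enters the median bar of its list.

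Set against these markers within each library, where scaling has no part, the granule genes kept a different relation to each list. The 4 granzymes and Prf1 together had 198 reads for each 1000 reads on NK cell markers in the library labelled Ctrl (95% interval 189 to 207) and 178 in the library labelled KD (171 to 185). Gzma alone had 80.6 (75.4 to 86.1) and 89.3 (84.6 to 94.2), intervals that overlapped, whereas Prf1 had 50.8 (46.8 to 55.1) and 35.7 (32.8 to 38.8). Fasl had 15.7 (13.5 to 18.1) and 19.2 (17.1 to 21.4). Nkg7 had 62.8 (58.2 to 67.6) and 49.4 (46.0 to 53.0), and Srgn had 410 (396 to 423) and 342 (331 to 352). Prf1, Nkg7 and Srgn were therefore lower relative to the NK cell markers in the library labelled KD. The values of Gzma and Fasl were higher there, with intervals that overlapped between the libraries. An overlap of intervals does not show that the values are equal. Most reads of this list came from Il2rb, Fcgr3 and Tyrobp, which other cells also express. Without these genes, 4855 and 7059 marker reads remained, and the 4 granzymes and Prf1 had 488 (464 to 513) and 414 (396 to 432) for each 1000 of them. On that base Prf1 had 125 (115 to 136) and 83.2 (76.3 to 90.5), and the intervals of Gzma and Fasl again overlapped. Gzmb depended on the base. Its intervals overlapped on the full list, with 46.9 (43.0 to 51.1) and 40.6 (37.5 to 43.8). They were separate without the 3 genes, with 116 (106 to 126) and 94.5 (87.1 to 102). In that shorter list Cd244a (1033 and 1716 reads) and Klrk1 (918 and 1369 reads) had the most reads. Whether the genes left in it were read from NK cells alone was not tested. For each 1000 reads on the T cell core genes, the 4 granzymes and Prf1 had 29.9 reads in the library labelled Ctrl (28.7 to 31.2) and 53.6 in the library labelled KD (51.6 to 55.6). For each 1000 reads on Cd8a and Cd8b1 the order was the opposite, with 2910 (2686 to 3155) and 826 (787 to 868). Relative to the Treg signature genes the values were 208 (199 to 217) and 268 (257 to 279), and those of Prf1 alone 53.5 (49.2 to 58.0) and 53.8 (49.5 to 58.5).

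Because the genotype concerns an m6A writer, the letters GGACT, a common form of the m6A consensus, were counted in the longest protein-coding transcript of each gene. Prf1 held 7 in 2474 bases, or 2.83 per kilobase, at percentile 96.8 of 20351 transcripts. Gzmb held 3 and Gzma 2, or 2.09 and 2.01 per kilobase, and Ctsw held 2, beside a median of 1.02 per kilobase over all transcripts. Nkg7 and Gzmm held 1 each, or 1.14 and 0.78 per kilobase. Fasl, Gzmk and Srgn held none in 1937, 1304 and 1727 bases, as against 89.3% of all transcripts with at least 1. That share covers transcripts of every length and was not matched to the length of these members. The count describes letters only, as methylation was not measured in these files.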

How the data were processed

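RNA-seq values of 1 library labelled Ctrl and 1 labelled KD were analysed. Per the study's methods, the authors aligned reads to mm10 with TopHat, and the submitters' processing notes name bcl2fastq 2.0, STAR, StringTie and DESeq2 without roles. The annotation used for counting is not given in the sources used here. The deposited values are a signal in which the counts of each library were scaled by its own size factor: 100% of the values were whole multiples of the smallest one within 0.01. Dividing by it gave 20239325 reads (Ctrl) and 18327535 reads (KD). A size factor set on other genes would shift every change by the same amount.

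Changes were computed with a pseudocount of 1, a minimum mean of 1 over both libraries and the 1.5-fold threshold of the methods. The added exact binomial test used edgeR's TMM-scaled totals, genes with at least 10 reads together a Benjamini-Hochberg adjusted p under 0.1 and at least 1.5-fold, and called 2197 genes higher and 2617 lower. It was tested on simulated data with counting error only, few changed genes and library totals without TMM. That simulation does not cover differences between mice or in cell content. Intervals cover counting error only, since reads that carry no molecular identifier may be copies of 1 molecule. Coordinates and lengths are from GENCODE vM21 on GRCm38, which is mm10 and held 20516 of the symbols. The members and all gene lists were chosen with earlier results of these data known, the lists from general knowledge, and genes named are members and list genes. Python 3.11.15, numpy 2.4.6, scipy 1.17.1, pandas 2.3.3, matplotlib 3.10.9, R 4.3.3 and edgeR 4.0.16 were used.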

Additional observations from a re-analysis of the deposited data

How the results depend on the processing

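No paired analysis was possible because each group has 1 library, and no library could be left out. The T cell core scaling moved more results than any other alternative tried: 4547 genes and 6 members were then at least 1.5-fold higher, and the median of the members was 0.63. It took 7 members outside their counting intervals, all upward, while Gzmk and Gzmm stayed inside. With a fold threshold of 2, 1722 genes and 0 members were higher. A minimum mean of 10 left 2035 genes at least 1.5-fold lower, and the exact binomial test, an alternative chosen after seeing the data, left 2617. Under pseudocounts of 0.1 and 5 and the median-of-ratios and TMM scalings, each member stayed inside its interval, and scaling to library totals moved Srgn alone, to 0.34. The marker list without Il2rb, Fcgr3 and Tyrobp was also chosen after seeing the data. No member value past 1.5-fold changed sign. The size of the differences between mice was not measured, so counting intervals are too narrow for a comparison of genotypes.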

Other observations

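Serine proteases related to the granzymes but known from other blood cells differed in both directions between the libraries. Of 13 such genes, 7 passed the minimum level and had reads in both libraries, and of these Cma1 was higher and Ctsg and Prtn3 were lower by 1.5-fold or more in the library labelled KD. Ctsg and Prtn3, proteases of the azurophil granules of neutrophil precursors, had log2 fold changes of -1.38 from 1079 and 352 reads and -1.17 from 2304 and 872 reads, and Elane was at -0.53. Cma1, a mast cell chymase gene, was at 2.32 from 22 and 97 reads (95% interval 1.69 to 3.11), whereas the basophil protease genes Mcpt8 and Prss34 were at -0.05 and -0.15. Mcpt4, Tpsb2 and Tpsab1 of the same list were at 0 in both libraries. Of 6 mast cell and basophil markers, 4 were at least 1.5-fold lower and 1, Hdc, higher, with a median of -0.69. Cfd, with 9 reads in the library labelled KD, and Mcpt1 and Mcpt2, with 12 and 3 reads in the library labelled Ctrl, were listed at 0 in the other library, so no size is given for them.

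Markers of plasmacytoid dendritic cells, which can also express granzyme B, were higher in the library labelled KD for 5 of 6 genes. Their summed level was 4163 and 8808 and their median log2 fold change 0.99. Bst2 was the exception at -0.01. Spib was the highest at 2.08, beside a median of 2.42 for the B cell markers. Siglech, their defining receptor gene, had 105 and 200 reads. The level of Gzmb in the same libraries was 544 and 758. Neither the part of plasmacytoid dendritic cells in that level nor the part of B cell RNA in these markers was tested.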
